A study of Homo sapiens with 30 samples.

Results

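CTCF regions more than 50 kb from any other, and with no MBD3, TET1 or TET2 region called on them, numbered 5511 in HEK293T cells. They were taken from the 42925 CTCF regions called without indole-3-acetic acid (IAA). They made up 12.8% (95% Wilson interval 12.5% to 13.2%) of that list. A region is a stretch where chromatin immunoprecipitation with sequencing (ChIP-seq) gave a peak, and overlapping rows of 1 list were merged. A member lay on chromosomes 1 to 22 or X and shared no base with an MBD3, TET1 or TET2 region called without IAA. Its summit, the point of strongest signal, had no summit of another CTCF region within 50 kb. A CTCF region is said to carry a protein where it shares a base with a called region of that protein. Whether MBD3, TET1 or TET2 lay at members below the calling threshold cannot be read from the lists. Of the 42300 CTCF regions on these chromosomes, 27124 met the condition on the other proteins and are called CTCF-only here, and 5511 of these, or 20.3% (19.8% to 20.8%), also met the condition on distance. The members were thus chosen from the 4 lists of cells without IAA, and what those lists show of them is given as a description.

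The cells were HEK293T, an established human embryonic kidney line, edited at CTCF for auxin-induced degradation and carrying transfected plasmids for ScFv-miniIAA7-mEGFP and AtAFB2-mCherry, the parts that link the edited CTCF to degradation. One set was kept for 72 h with 0.5 mM IAA, an auxin, and the other for the same time without IAA; a label of the second set reads DMSO, which the protocol does not mention. All cells, including those without IAA, carried the edit and received the plasmids, and the sources used here do not say whether the edited cells are 1 clone. Each condition had 3 samples for each of 4 antibodies (CTCF, MBD3, TET1, TET2) and 3 inputs, 30 samples in 10 groups, and the 3 samples of an antibody and condition were pooled by the authors into 1 peak list. The 8 lists therefore hold no replicate error, their read depth is unknown, and intervals given here cover counting error over regions only. No test was run between classes of regions, because regions are positions in pooled lists and not replicates.

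CTCF is a zinc-finger protein that binds a long DNA motif and stops the cohesin complex as it extrudes chromatin, so that loops and domain boundaries form where it sits. Boundaries often hold several CTCF sites close together, while other sites stand alone inside domains or gene-poor stretches. MBD3 belongs to NuRD, a complex that slides nucleosomes and takes acetyl groups off histones. TET1 and TET2 oxidise 5-methylcytosine, and methylation of the CTCF motif is known to hinder CTCF binding at some sites.

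The strongest of the isolated CTCF-only regions had high CTCF enrichment, and the 5 highest shared no base with a region of any of the other 7 lists. For MBD3, TET1 and TET2 without IAA this follows from the choice of members. With IAA, 0 of all 5511 members shared a base with CTCF and 4, or 0.0726%, with MBD3, TET1 or TET2. Such sharing was rare in any class, at 0.128% and 0.18% of all 42300 CTCF regions on these chromosomes. The authors' fold enrichment, a ratio of signal to the peak caller's background, was 48.4 at the region from 59252288 to 59252645 on chromosome 2 (hg19), with a −log10 q of 147. Its nearest CTCF summits lay 153 kb to the left and 55.4 kb to the right, its nearest TET1 region 263 kb away and its nearest MBD3 region 294 kb away. The second, from 133204892 to 133205239 on chromosome 5, had 48.2-fold enrichment and a −log10 q of 157, and its nearest TET1 summit lay 75.1 kb off, at the neighbouring CTCF summit. The third stood at 47.4-fold, from 40987238 to 40987612 on chromosome 2, between CTCF-free stretches of 205 kb and 654 kb. Next came a 42.4-fold region on chromosome 5, with bounds at 125570275 and 125570617, and the fifth was the 40.3-fold region on chromosome 17 that spans 10130165 to 10130501. By fold these 5 ranked 1113, 1151, 1266, 2114 and 2615 among the 42300 regions on these chromosomes. When those regions were split by fold into 10 strata of similar size, all 5 fell in the strongest, from 35.4- to 126-fold.

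The weakest members were marginal calls. The region from 87564562 to 87564783 on chromosome 5 had 2.251-fold enrichment and a −log10 q of 1.85. A fold of 2.37 with a −log10 q of 1.40, close to the 0.05 threshold on q, was listed for 150321091 to 150321263 on chromosome 3. The third weakest, from 144766585 to 144766775 on chromosome 8, had 2.49-fold enrichment. Between these ends the isolated CTCF-only regions spanned a median of 9.58-fold (95% interval 9.51 to 9.87, quartiles 6.56 and 15.1). Members with a fold under 5 numbered 562, or 10.2% (9.43% to 11.02%), and 635, or 11.5% (10.7% to 12.4%), reached a fold of at least 20.

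By fold, the isolated CTCF-only regions resembled the 21613 CTCF-only regions that had another CTCF summit within 50 kb. These had a median of 9.32-fold (9.09 to 9.43, quartiles 6.08 and 14.6), and 14.4% (13.9% to 14.8%) of them had a fold under 5. The 1874 isolated CTCF regions that carried MBD3, TET1 or TET2 stood much higher, at a median of 27.5-fold (26.7 to 28.3), as did the 13302 others with these proteins, at 27.7-fold (27.4 to 27.8). Over all CTCF regions on these chromosomes the median was 13.6-fold.

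**Figure D1:**
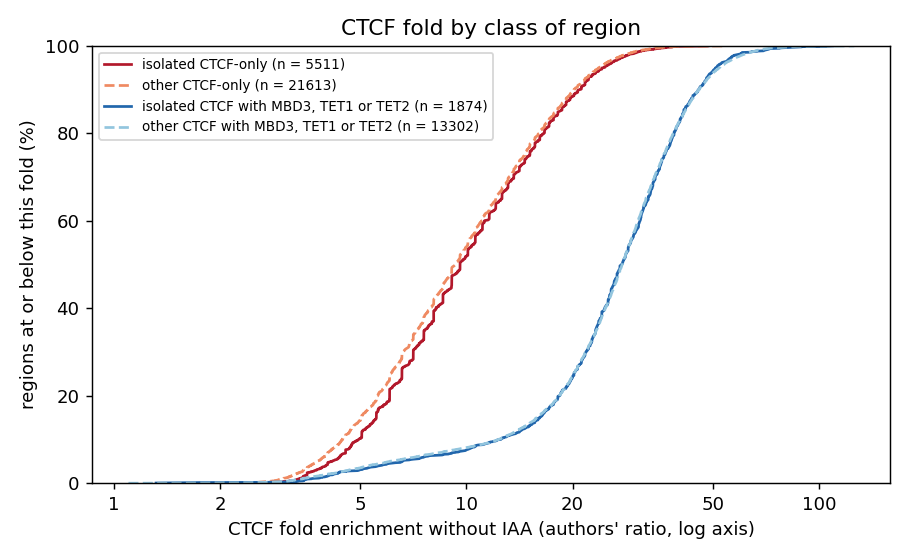
Cumulative share of CTCF regions (y axis, %) at or below each CTCF fold enrichment without IAA (x axis, log scale) for 4 classes of region, named with their numbers in the legend. The curves of isolated and other CTCF-only regions run close together around medians of 9.58 and 9.32, and both curves of regions with MBD3, TET1 or TET2 lie to the right, around 27.5 and 27.7.

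The isolated CTCF-only regions were slightly narrower than the other CTCF-only regions, and both classes consisted almost wholly of single rows. Their median width was 228 bp (quartiles 190 and 276), against 238 bp (194 and 290) for the other CTCF-only regions and 277 bp for all CTCF regions on these chromosomes. Among members, width rose with fold, with a Spearman's rho of 0.65. The summit lay a median of 10 bp from the middle of the region, against 11 bp in the other CTCF-only regions and 12.5 bp in all. Joined rows made up 32 of the 5511 regions, or 0.581% (0.412% to 0.819%), against 1.43% (1.28% to 1.60%) of the other CTCF-only regions. The widest member, from 9406021 to 9406873 on chromosome 11, joined 2 rows over 853 bp at just 4.64-fold.

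At like fold, the isolated CTCF-only regions had a lower −log10 q and a lower width than the other CTCF-only regions in each of 6 bins of fold. Between 5- and 10-fold the median −log10 q was 10.9 in 2297 isolated regions and 12.1 in 8578 others, with median widths of 196 bp and 206 bp. Between 20- and 30-fold it was 60.4 in 545 isolated regions and 67.2 in 1973 others, with widths of 303 bp and 307 bp. Both quantities come from the same list as the choice of members, and read depth around each region, which enters q, is not in the lists.

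The limit of 50 kb cut through a continuous range of distances. The members just past it, at 119674745 to 119674934 of chromosome 8 and at 92807638 to 92807831 of chromosome 7, had their nearest CTCF summit at 50021 bp and 50024 bp, with 6.17- and 12.1-fold enrichment. The CTCF-only regions just inside it, at 102563790 to 102563979 of chromosome 12 and at 111271018 to 111271211 of chromosome 6, had theirs at 49961 bp and 49958 bp, with 9.92- and 7.02-fold enrichment. A member's nearest CTCF summit lay a median of 84.3 kb away (82.9 to 85.7, quartiles 63.1 and 128), and its neighbour on the farther side a median of 176 kb away (quartiles 113 and 289). In the other CTCF-only regions the nearest summit lay a median of 11.6 kb away.

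Some isolated regions bordered very long stretches without CTCF. The nearest summit was over 100 kb away for 2086 of the 5511 members, over 200 kb for 534, over 500 kb for 38 and over 1000 kb for 2. The most isolated, from 62476076 to 62476360 on chromosome 7, had 14.0-fold enrichment and lay 4990 kb from the CTCF summit on its left and 1292 kb from that on its right. The second, a 5.27-fold region on chromosome 16 at 60720868 to 60721035, had gaps of 1275 kb and 1250 kb. The third, an 11.6-fold region on chromosome 9 at 45415508 to 45415754, had gaps of 980 kb and 1319 kb. A gap of over 1000 kb on at least 1 side was found at 75 members, or 1.36% (1.09% to 1.70%). Such gaps can hold sequence where no peak can be called, such as the unassembled parts of hg19, and these were not separated here.

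Distance and strength showed almost no relation among the isolated CTCF-only regions. Spearman's rho between fold and the distance to the nearest CTCF summit was 0.01 over the 5511 regions, which all come from 1 list. The fifth of members nearest to another CTCF summit, at 50.02 to 59.9 kb, had a median of 9.70-fold (9.08 to 10.1), and the fifth farthest from one, at 144 kb and more, had 9.58-fold (9.08 to 10.1).

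CTCF-only regions were isolated more often than CTCF regions with the other proteins, and this held at every window from 5 kb to 500 kb. At 50 kb the shares were 20.3% (19.8% to 20.8%) of CTCF-only regions and 12.3% (11.8% to 12.9%) of regions with MBD3, TET1 or TET2. At 10 kb they were 63.7% and 55.9%. At 200 kb they were 1.97% (1.81% to 2.14%) and 0.606% (0.495% to 0.743%). At 1000 kb just 2 CTCF-only regions and 0 of the others remained, and the intervals overlap.

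**Figure D2:**
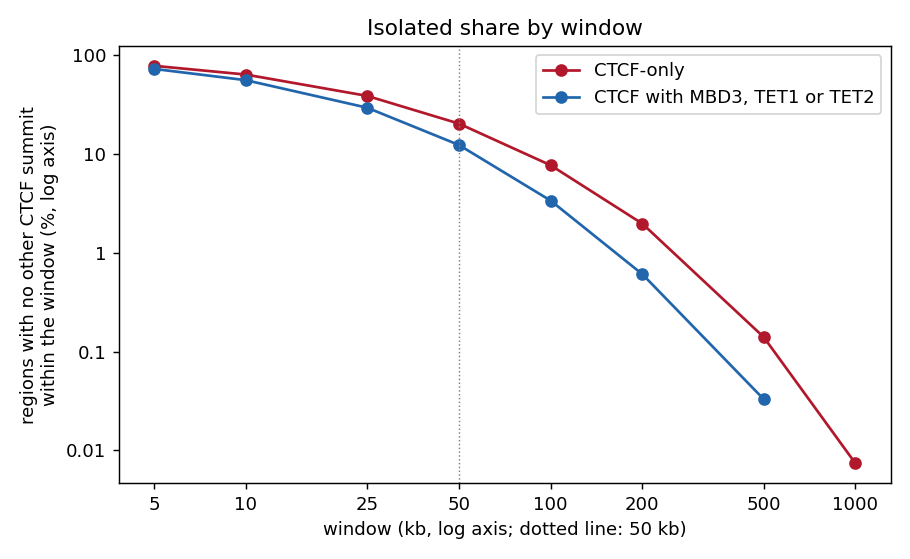
Share of CTCF regions with no other CTCF summit within a window (y axis, %, log scale) by window (x axis, kb, log scale), for CTCF-only regions and for CTCF regions with MBD3, TET1 or TET2. The CTCF-only curve lies above the other at each window from 5 kb to 500 kb; at 1000 kb, 2 CTCF-only regions and 0 of the others, not drawn, remained.

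The difference in isolation was also seen at like CTCF fold. Over 10 strata of fold, each holding about the same number of CTCF regions, the isolated share was 15.3% to 26.3% among CTCF-only regions and 10.9% to 16.4% among regions with MBD3, TET1 or TET2, and it was higher among CTCF-only regions in all 10. The Wilson intervals were apart in 9 of the 10, the exception being stratum 4, from 8.34- to 10.6-fold. In the strongest stratum, from 35.4-fold, just 2.70% (2.2504% to 3.23%) of CTCF regions were CTCF-only. Of those 114, 30 were isolated, or 26.3% (19.1% to 35.1%), against 518 of 4112 with the other proteins, or 12.6% (11.6% to 13.6%). In the weakest stratum, up to 5.01-fold, the shares were 15.3% (14.2% to 16.5%) and 11.05% (8.64% to 14.0%).

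**Figure D3:**
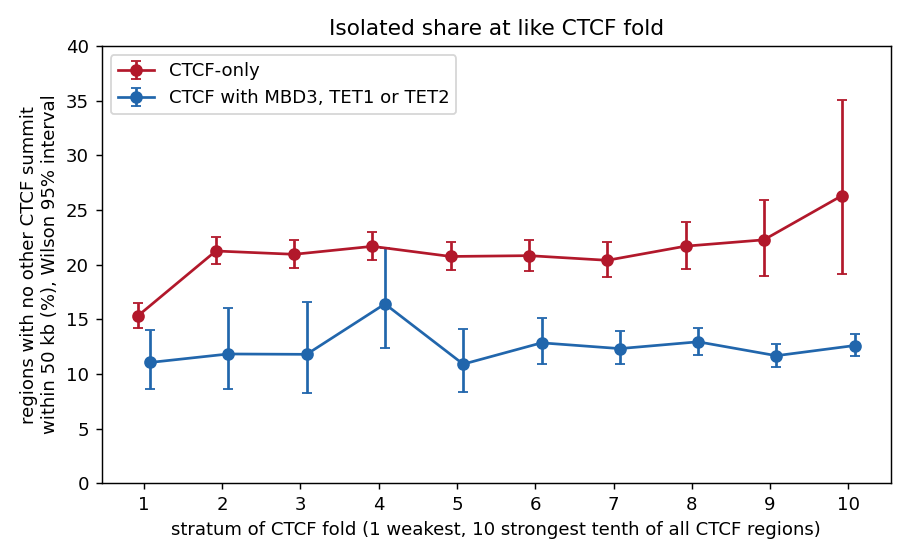
Share of CTCF regions with no other CTCF summit within 50 kb (y axis, %, bars are Wilson 95% intervals) in 10 strata of CTCF fold (x axis, weakest to strongest), for CTCF-only regions and for CTCF regions with MBD3, TET1 or TET2. CTCF-only points lie between 15.3% and 26.3% and the others between 10.9% and 16.4%, with the CTCF-only point higher in each stratum.

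The isolated share also differed with the protein carried. It was 20.3% among CTCF-only regions. In 131 regions with all 3 proteins it was 16.8% (11.4% to 24.1%) and in the 318 with MBD3 alone it was 16.0% (12.4% to 20.5%), and both intervals overlap that of CTCF-only regions. The median CTCF fold of 10.0 in regions with MBD3 alone was close to the 9.38 of CTCF-only regions. Regions with TET1 alone were isolated in 12.7% (12.1% to 13.3%) of 11162 cases, and those with MBD3 and TET1 in 11.4% (10.3% to 12.5%) of 3231. The 180 regions with TET2 alone gave the lowest share, 5.56% (3.05% to 9.92%), at a median CTCF fold of 5.21. Shares with overlapping intervals were found in 128 regions with TET1 and TET2, 7.03% (3.74% to 12.8%), and in 26 with MBD3 and TET2, 7.69% (2.14% to 24.1%).

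Isolated CTCF-only regions had CTCF-only neighbours more often than the other classes did. Over all CTCF regions on these chromosomes, 64.1% were CTCF-only. The nearest CTCF region was itself CTCF-only for 73.5% (72.4% to 74.7%) of them, against 63.6% (62.9% to 64.2%) of the other CTCF-only regions. For isolated CTCF regions with MBD3, TET1 or TET2 it was 66.1% (63.9% to 68.2%). Both flanking CTCF regions were CTCF-only for 55.6% (54.3% to 56.9%) of members and for 42.0% (41.3% to 42.6%) of the other CTCF-only regions. With MBD3, TET1 or TET2 these shares were 47.1% (44.8% to 49.3%) of isolated and 35.7% (34.9% to 36.5%) of non-isolated regions. A higher share was thus common to both isolated classes.

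Members also followed each other along the chromosome. They formed 3219 uninterrupted runs, of which 2035 held a single member, and 3476 of the 5511 stood next to another member. Of the members with a CTCF region on both sides, 63.1% (61.8% to 64.4%) had a member on at least 1 side, against 54.6% (52.4% to 56.9%) of isolated CTCF regions with MBD3, TET1 or TET2 and 16.4% (15.9% to 16.9%) of the other CTCF-only regions. Having a member alongside was thus common to both isolated classes, and the distance condition bears on it, since a neighbour over 50 kb away is itself isolated on that side. The longest runs held 12 members each. One reached from 187020799 to 190343135 on chromosome 1, over 3.32 Mb with CTCF folds from 5.04 to 21.1, and the other from 27354658 to 30214741 on chromosome X, over 2.86 Mb with folds from 5.55 to 23.1. In these stretches every CTCF region was weaker than the median region with TET1, MBD3 or TET2. So were most members anywhere, whose upper quartile was 15.1-fold. The lack of called regions of those proteins follows from the choice of members. Runs of 11 members were found on chromosome 5 from 103682904 to 106695844, on chromosome X from 96281479 to 99112739 and in 2.12 Mb of chromosome 4. A run on the X chromosome reached the highest fold of these 5 runs, 30.6.

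Counted in bins of 1 Mb that held a CTCF region, 430 bins held no member, 778 held 1 and 771 held 2. The fullest 5 bins held 7 members each. One of them, at 162 to 163 Mb of chromosome 6, had 7 CTCF regions in all, and each was a member. In the bin at 12 to 13 Mb of chromosome 11 the 7 members shared the bin with 11 other CTCF regions, 9 of them carrying MBD3, TET1 or TET2. Bins without a member had a median of 20 CTCF regions, and bins with 4 members had a median of 10.

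Isolation varied widely between chromosomes. The share of CTCF-only regions that were isolated was highest on chromosome 18, at 29.0% (25.5% to 32.8%), followed by chromosome 21 at 28.8% (23.8% to 34.4%) and chromosome X at 28.2% (25.7% to 30.9%), whose intervals overlap. It was lowest on chromosome 19, at 5.92% (4.62% to 7.54%). Chromosome 22 had 7.61% (5.68% to 10.1%), and chromosome 17 had 10.1% (8.49% to 12.1%). CTCF regions were densest on chromosome 19, at 29.4 per Mb up to the highest listed position, and sparsest on chromosome 21, at 8.58 per Mb, and a fixed window leaves fewer regions isolated where they are dense. The density of members ran from 0.820 per Mb on chromosome 22 to 2.20 per Mb on chromosome 18. Both densities use the length from the start of the chromosome. That length takes in sequence where no peak can be called, such as the unassembled parts of hg19. A chromosome with much of it, and its place in these rankings, can thus appear too sparse. On all 23 chromosomes the isolated share was higher among CTCF-only regions than among those with MBD3, TET1 or TET2. The Wilson intervals overlapped on 6 of them, chromosomes 4, 13, 16, 18, 21 and 22. On chromosome 21 the shares were 28.8% of CTCF-only regions and 25.9% (19.3% to 33.9%) of the others. The median CTCF fold of the members stayed between 8.05, on chromosome 22, and 11.3, on chromosome 21.

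**Figure D4:**
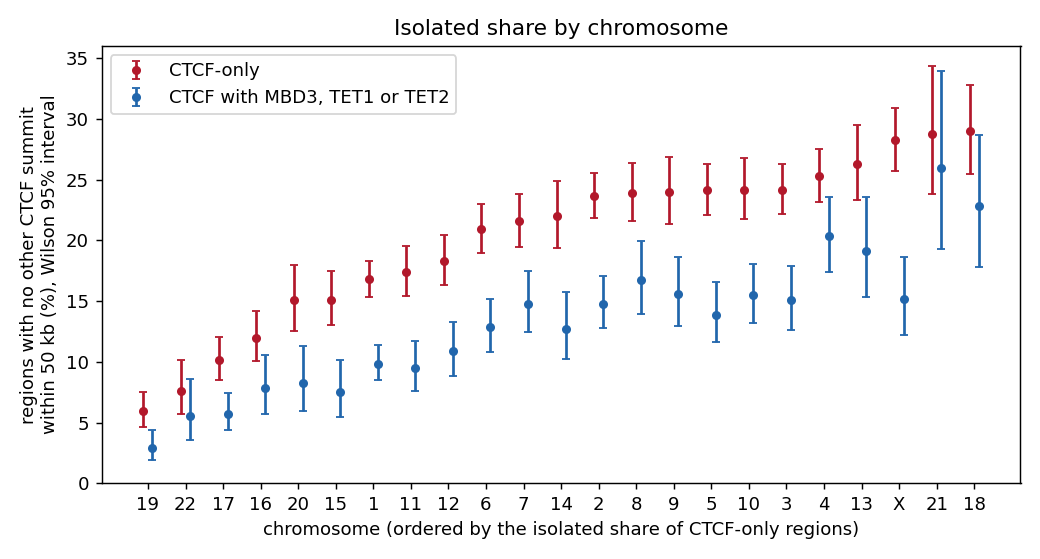
Share of CTCF regions with no other CTCF summit within 50 kb (y axis, %, bars are Wilson 95% intervals) for each chromosome (x axis, ordered by the share among CTCF-only regions). The CTCF-only point is the higher on each of the 23 chromosomes, from 5.92% on chromosome 19 to 29.0% on chromosome 18.

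Members were less frequent toward chromosome ends. Within 5 Mb of the start or of the highest listed position lay 323 of the 5511, or 5.86% (5.27% to 6.51%), against 9.85% (9.46% to 10.3%) of the other CTCF-only regions and 9.19% of all CTCF regions on these chromosomes. For isolated CTCF regions with MBD3, TET1 or TET2 the share was 6.46% (5.43% to 7.66%), close to that of the members.

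The surroundings of the members held few regions of the other proteins even when CTCF sites were set aside. Most TET1 and MBD3 regions lie on CTCF, and a member has no other CTCF within 50 kb, so distances were taken only to the 2881 MBD3, 1448 TET1 and 851 TET2 regions without IAA that shared no base with CTCF. A TET1 summit of this kind lay within 50 kb of 171 members, or 3.10% (2.68% to 3.59%), against 6.10% (5.79% to 6.43%) of the other CTCF-only regions. For TET2 the shares were 2.05% (1.71% to 2.46%) of members and 4.10% (3.84% to 4.37%) of the others. For MBD3 they were closer, at 7.48% (6.81% to 8.20%) of members and 9.43% (9.05% to 9.83%) of the others. Isolated CTCF regions with MBD3, TET1 or TET2 had 6.51% for TET1, 3.31% for TET2 and 10.0% for MBD3. The non-isolated regions with these proteins had 7.06%, 5.68% and 10.0%. The lower TET2 share was thus common to both isolated classes.

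Among the members themselves, these shares were lower the more isolated the region was. In the fifth of members nearest to another CTCF summit, 18.3% (16.1% to 20.7%) had such an MBD3 region within 100 kb, 8.70% (7.18% to 10.5%) a TET1 region and 6.07% (4.81% to 7.64%) a TET2 region. In the fifth farthest from other CTCF these shares were 7.53% (6.12% to 9.24%) for MBD3, 2.63% (1.84% to 3.75%) for TET1 and 0.907% (0.494% to 1.66%) for TET2.

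A few members had another protein close by without a shared base. The nearest MBD3 summit to any member lay 0.186 kb from a 3.53-fold CTCF region on chromosome 8, from 81243162 to 81243335, and stood at 5.31-fold in the MBD3 list. The nearest TET1 summit lay 0.296 kb from a 6.23-fold CTCF region on chromosome 1, from 93646005 to 93646225, at 4.76-fold in the TET1 list. For TET2 the nearest was 0.391 kb from a 5.32-fold CTCF region on chromosome 7, from 120497194 to 120497358, at 3.39-fold with a −log10 q of 1.32. All 3 of these CTCF regions lay below the members' median fold.

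With IAA, none of the 5511 isolated CTCF-only regions was called with the CTCF antibody, a share of 0% with a Wilson upper bound of 0.0697%. The background over all 42300 CTCF regions on these chromosomes was 54 called, or 0.128%. Of the other CTCF-only regions 2 of 21613 were called, or 0.00925% (0.00254% to 0.0337%), and of the isolated regions with MBD3, TET1 or TET2 3 of 1874, or 0.160% (0.0545% to 0.470%). The CTCF list with IAA held 63 regions against 42925 without IAA, so nearly every region of any class was uncalled, and the interval of the members overlaps that of the other CTCF-only regions. Whether the members retained CTCF below the calling threshold cannot be read from these lists.

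MBD3 was called with IAA at 0 members (upper bound 0.0697%), where the background was 0.0142%. TET1 was called with IAA at 3 members, or 0.0544% (0.0185% to 0.160%), against a background of 0.106%. TET2 was called at 1 member, or 0.0181% (0.00320% to 0.103%), against 0.0709%. Together MBD3, TET1 or TET2 came to lie on 4 members, or 0.0726% (0.0282% to 0.186%), and on 20 of the other CTCF-only regions, or 0.0925% (0.0599% to 0.143%), with 0.18% over all CTCF regions. None of these shares stood apart from the other CTCF-only regions beyond its interval. Seen from the lists with IAA, these are 3 of 325 TET1 regions and 1 of 3022 TET2 regions.

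The 4 members concerned were weak or moderate in CTCF, and the calls with IAA had a −log10 q of at most 2.31. On chromosome 10 a 12.5-fold CTCF region from 110671553 to 110671854 carried TET1 with IAA at 4.25-fold with a −log10 q of 1.33, its summit 135 bp from that of CTCF. A second on the same chromosome, from 31320513 to 31320741, had 5.93-fold CTCF enrichment without IAA and TET1 with IAA at 4.41-fold with a −log10 q of 2.31. This one already had a TET1 region without IAA 0.74 kb away, at 4.25-fold. The third, from 2617133 to 2617420 on chromosome 2, had 5.38-fold CTCF enrichment without IAA, TET1 with IAA at 4.25-fold, and no TET1 region without IAA within 690 kb. TET2 with IAA lay on the CTCF region from 284188 to 284746 on chromosome X, the first of that chromosome, at 3.39-fold with a −log10 q of 1.84 and 27 bp from the CTCF summit. That CTCF region stood at 3.95-fold without IAA and its nearest TET2 region without IAA lay 37447 kb away.

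The TET2 list with IAA was the longest of the 4 lists with IAA, and it too was sparse around the members. Of its regions away from CTCF, at least 1 lay within 50 kb of 330 members, or 5.99% (5.39% to 6.65%). The same held for 10.2% (9.81% to 10.6%) of the other CTCF-only regions. Isolated CTCF regions with MBD3, TET1 or TET2 had 7.84% (6.71% to 9.15%), and the non-isolated regions with these proteins had 11.6%. A lower share for TET2 with IAA was thus common to both isolated classes, and it was lowest in the members. For TET1 with IAA the shares of members and of the other CTCF-only regions were nearly equal, at 0.798% (0.595% to 1.07%) and 0.800% (0.690% to 0.928%). For MBD3 with IAA they were 0.0726% (0.0282% to 0.186%) and 0.125% (0.0859% to 0.182%). The TET2 lists with and without IAA differ in length, so their shares are not compared with each other.

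**Figure D5:**
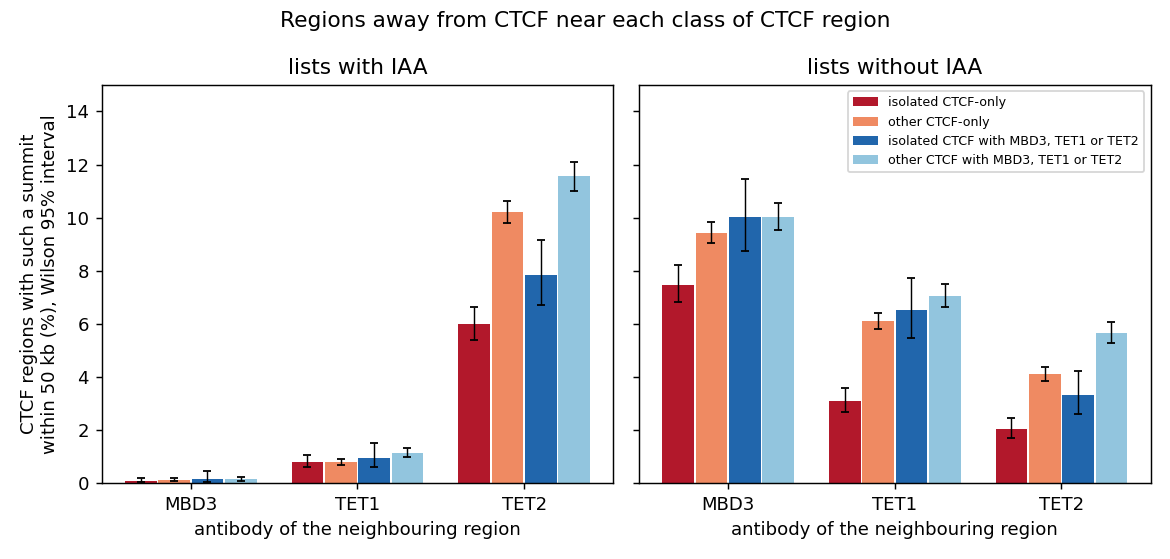
Share of CTCF regions (y axis, %, error bars are Wilson 95% intervals) with a summit of MBD3, TET1 or TET2 away from CTCF within 50 kb, for 4 classes of CTCF region, with the lists of cells with IAA at the left and without IAA at the right. Isolated CTCF-only regions have the lowest bar for TET2 with IAA, at 5.99%, and for each protein without IAA, at 7.48%, 3.10% and 2.05%.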

How the data were processed

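ChIP-seq peak lists of HEK293T cells were used, 1 per antibody and condition, each pooling 3 samples. Per the submitters' processing notes, the build was hg19 and the tools included MACS2 2.1.2, Bowtie2 2.3.4 and bedtools 2.25.0, with SAMtools 1.9 and FastQC 0.11.7 also listed, none with a role. The sources used here do not give the control of each call. The authors' deposited column 7 is the fold enrichment, a ratio, and column 9 is −log10 of the q-value. Both were used within 1 list only.

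Rows sharing 1 bp were joined per list. Fold and −log10 q of a merged region are the maxima over its rows, and its summit comes from the row of highest −log10 q. Positions count from 1. Shares carry Wilson 95% intervals and medians order-statistic 95% intervals, which cover counting error only. Python 3.11.15, pandas 2.3.3, numpy 2.4.6 and scipy 1.17.1 were used, and the steps were tested on simulated data.

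Named regions are the 5 of highest and 3 of lowest fold, the 3 farthest from other CTCF, the 2 on each side of 50 kb, the widest, the nearest to each other protein and every member called with IAA. The runs and bins were chosen after their values were seen. The members and lists were chosen with earlier results of these data known. Sequence and gene annotation of hg19 were not used here.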

Additional observations from a re-analysis of the deposited data

How the results depend on the processing

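Of 60 values, 6 results under 10 alternatives, 39 stayed within the interval of the reported value, or within 1.5 times for the number of regions. By construction, a window of 25 kb gave 10511 regions, 38.8% of CTCF-only, and one of 100 kb gave 2086, 7.69%. The share with any TET1 region within 50 kb, those on CTCF included, is 3.10% as reported, because a member has no other CTCF that near. With the 25 kb window it was 23.5%, a count that takes in TET1 on neighbouring CTCF, and with 100 kb 1.82%. A −log10 q of at least 5 gave an isolated share of 22.04%, a median fold of 10.6, any TET1 within 50 kb at 1.20% and 0% touched by MBD3, TET1 or TET2 with IAA. At 10 these were 25.1%, 13.1, 0.254% and 0%, and at a fold of at least 5 they were 22.6%, 10.6, 1.24% and 0.0175%. These limits were set on all 8 lists, so the TET1 list was shortened along with the CTCF list. The 4 calls with IAA at members had a −log10 q of at most 2.31 and a fold of at most 4.41. None of these 4 could therefore remain under the limits. Requiring 50% of both regions to overlap gave 19.1%, a median of 10.1 and TET1 within 50 kb at 9.63%, since regions that touch TET1 then count as CTCF-only. The share called with CTCF after IAA was 0% in every alternative except the 25 kb window, with 1 region, 0.00951%.

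Which regions belong depends on the list length. At a −log10 q of at least 10, 3904 of the 5511 (70.8%) remained and 2008 others joined them, of which 1157 had been CTCF-only with a CTCF neighbour and 611 isolated with another protein. Read depth, and with it the number of weak neighbours called, is unknown. No paired analysis was possible because each list pools its 3 samples.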
